A study of Mus musculus with 2 samples.

Results

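Wide accessible regions are stretches of at least 600 bp of mouse thymus chromatin that were cut by DNase I more often than their surroundings. In each library the longer of the deposited peak lists was taken, peaks that overlapped or touched were joined, and joined regions of at least 600 bp on the 19 autosomes were kept. These were 3739 of 124408 regions (3.01%) in replicate 1 and 843 of 66438 regions (1.27%) in replicate 2, a mean of 2291 ± 2048 (SD, n = 2). The members were chosen by width, so widths and the heights of the joined peaks are given as descriptions. All other autosomal joined regions are called narrower regions, 120669 in replicate 1 and 65595 in replicate 2.

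The tissue was whole thymus of 10-day-old female mice of the strain B6CASTF1/J, first-generation hybrids that carry 1 set of C57BL/6J and 1 set of CAST/EiJ chromosomes. The libraries formed 1 group of 2 biological replicates, with no treatment and no control. The labels number the animals separately but share 1 donor identifier, and the spread between replicates may be smaller than that between unrelated animals. Whole thymus mixes thymocytes with epithelial, myeloid, vascular and connective tissue cells, and in such bulk tissue a region open in few cells and one weakly open in many cells cannot be told apart.

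DNase I cuts DNA where nucleosomes are absent or loosened. Most regulatory elements are read as a short gap of about the length left by the loss of a nucleosome, with a footprint, a run of protected bases, where a protein sits on the DNA. At active gene starts rich in CpG dinucleotides, and at clusters of enhancers beside genes that define a cell's identity, accessible DNA can extend over several neighbouring nucleosomes. In the thymus such identity genes include Tcf7, Satb1 and Ets1, transcription factors of the T lineage.

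The number of sequenced reads was not used here, so the depth is unknown and no counting interval is given. The larger peak lists held 132737 and 69798 peaks in replicates 1 and 2, and replicate 1 had more regions in every width class. Peak height is the authors' signal, and is given below as a multiple of the median peak height of its library, 0.625 in replicate 1 and 0.828 in replicate 2. The thymus label was checked against marker genes. A region of any width lay within 500 bp of a start at 63.2% (replicate 1) and 57.8% (replicate 2) of the 20722 autosomal protein-coding genes. All 11 thymocyte markers had such a region in both replicates, and none of the 3 erythroid, 4 skeletal muscle and 4 hepatocyte markers did. A region lay at 2 of 6 thymic epithelial, 1 of 4 B-cell, 2 of 5 myeloid and 2 of 4 endothelial markers in each replicate, and at 3 of 5 fibroblast markers in replicate 1 and 2 of 5 in replicate 2.

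Windows of 240 bp from 6 regions that were wide in both replicates are printed to show what such DNA looks like at a CpG-rich start, at a distal element and where footprints did not coincide. Capitals mark the bases that lay in a footprint of both replicates, and coordinates are 1-based on mm10, with sequence from the RefSeq copy of that assembly (GRCm38.p6). Except at Tcf7, where none were shared, the window holds the most bases in footprints of both replicates. The first 3 lie at starts, the other 3 are distal.
Mgat1, chr11:49244215-49244454, plus strand: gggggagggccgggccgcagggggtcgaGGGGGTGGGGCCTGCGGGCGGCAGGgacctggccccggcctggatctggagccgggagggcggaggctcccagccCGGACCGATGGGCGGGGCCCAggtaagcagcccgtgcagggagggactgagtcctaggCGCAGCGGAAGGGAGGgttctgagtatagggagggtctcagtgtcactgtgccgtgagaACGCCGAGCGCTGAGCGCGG
Cdk6, chr5:3341275-3341514, plus strand: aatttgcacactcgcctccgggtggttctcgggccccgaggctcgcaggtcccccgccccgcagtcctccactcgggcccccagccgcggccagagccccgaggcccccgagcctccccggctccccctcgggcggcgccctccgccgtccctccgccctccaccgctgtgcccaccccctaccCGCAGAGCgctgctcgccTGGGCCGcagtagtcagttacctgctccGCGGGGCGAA
Foxp1, chr6:99028569-99028808, plus strand: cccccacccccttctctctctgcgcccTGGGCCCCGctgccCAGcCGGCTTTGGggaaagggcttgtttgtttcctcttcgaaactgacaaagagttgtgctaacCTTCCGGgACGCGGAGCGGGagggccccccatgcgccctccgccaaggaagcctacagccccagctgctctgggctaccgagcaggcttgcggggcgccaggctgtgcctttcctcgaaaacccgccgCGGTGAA
Cdkn1b, chr6:134928561-134928800, plus strand: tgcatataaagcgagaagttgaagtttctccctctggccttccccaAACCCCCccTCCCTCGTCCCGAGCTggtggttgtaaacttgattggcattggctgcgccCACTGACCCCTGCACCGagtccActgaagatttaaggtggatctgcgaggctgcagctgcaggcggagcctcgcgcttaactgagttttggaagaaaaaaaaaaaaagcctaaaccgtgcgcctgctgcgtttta
Trbj2 segments, chr6:41543702-41543941, plus strand: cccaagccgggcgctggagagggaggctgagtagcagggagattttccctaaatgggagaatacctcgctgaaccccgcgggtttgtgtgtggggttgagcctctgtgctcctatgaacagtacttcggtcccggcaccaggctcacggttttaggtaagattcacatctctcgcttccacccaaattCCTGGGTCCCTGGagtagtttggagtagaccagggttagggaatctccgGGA
Tcf7, chr11:52273081-52273320, plus strand: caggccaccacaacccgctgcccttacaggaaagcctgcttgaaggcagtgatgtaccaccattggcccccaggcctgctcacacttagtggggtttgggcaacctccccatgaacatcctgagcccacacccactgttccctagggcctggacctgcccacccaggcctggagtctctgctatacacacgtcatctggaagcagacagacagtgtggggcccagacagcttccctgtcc
The windows at Mgat1, Cdk6 and Foxp1 had GC contents of 73.8%, 76.2% and 66.2% and held 20, 27 and 17 CpG dinucleotides. At Mgat1, which codes for the enzyme that opens the synthesis of branched N-glycans, the window ran from 31 bp upstream to 208 bp downstream of the start, and 82 of its 240 bases were in footprints of both replicates. At Cdk6, a kinase that drives entry into S phase, it ran from 210 bp upstream to 29 bp downstream, with 25 such bases. At Foxp1, a forkhead factor that keeps naive T cells quiescent, it lay 134 to 373 bp downstream of a start inside the gene, with 47 such bases. The Cdkn1b window began 8048 bp downstream of the start of the p27 inhibitor gene, in a region that overlapped the noncoding genes Lockd and Gm44238, and shared 41 bases. The window among the Trbj2 segments, which are joined to the variable part of the T-cell receptor beta chain during recombination, shared 16 bases. The Tcf7 window lay 9251 to 9490 bp downstream of the start of that gene, held 2 CpG dinucleotides and shared no footprint base.

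Wide regions were a small tail of the width distribution. Their median width was 720 bp in replicate 1 (quartiles 640 and 860) and 700 bp in replicate 2 (640 and 800), and the widest measured 2920 and 1800 bp. There were 1292 regions of 800 bp or more and 499 of 1000 bp or more in replicate 1, and 237 and 85 in replicate 2. Just inside the limit, at 600 to under 620 bp, lay 384 regions in replicate 1 and 104 in replicate 2, and just outside it, at 580 to under 600 bp, lay 449 and 122. The limit therefore cut through a smooth decline. Wide regions covered 2.96 Mb in replicate 1 and 0.635 Mb in replicate 2, which was 10.3% and 4.61% of all autosomal bases in regions. Most of them did not owe their width to joining, since 78.6% in replicate 1 and 74.0% in replicate 2 held at least 1 deposited peak that was itself 600 bp or longer.

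Wide regions were not the highest regions. Their highest peak had a median of 1.5 times the library median in replicate 1 and 1.36 times in replicate 2. Narrower regions had medians of 0.981 and 1.00, but a longer upper tail. The 95th percentile of height was 4.73 in wide and 9.08 in narrower regions of replicate 1, and 4.07 in wide and 8.87 in narrower regions of replicate 2. A height of 8 times the library median or more was reached by 1.34% of wide and 6.10% of narrower regions in replicate 1, and by 1.19% of wide and 5.97% of narrower regions in replicate 2. Among the highest 1% of all regions, 3 of 1245 were wide in replicate 1 and 0 of 664 in replicate 2. Median height peaked in the 200 to under 300 bp class, at 1.62 and 1.74, and was lower in each class of 300 bp or more in both replicates.

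**Figure D1:**
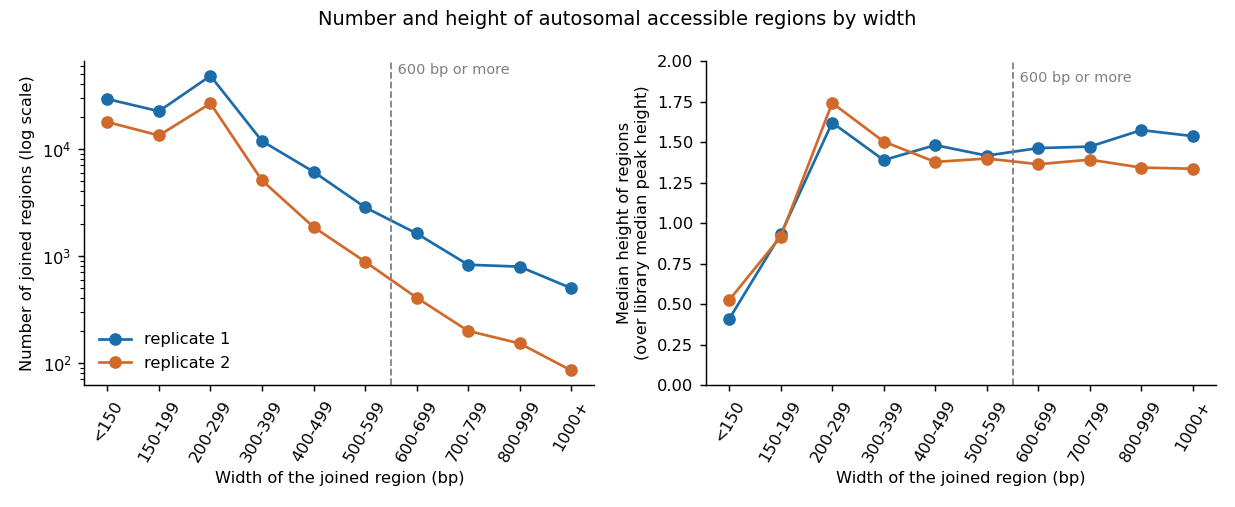
Number of autosomal joined regions (left, log scale) and median height of the highest peak of a region in multiples of the library's median peak height (right), by width class in bp, for replicates 1 and 2. Numbers fall steeply with width beyond 200 to under 300 bp, while the median height of the classes of 600 bp or more stays between 1.34 and 1.57, below the 1.62 and 1.74 of the 200 to under 300 bp class.

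Gene starts held more of the wide than of the narrower regions. A region was called a promoter region where its nearest base lay within 1 kb of the start of a protein-coding transcript. By that rule 1622 wide regions (43.4%) were promoter regions in replicate 1, against 21.7% of narrower regions. In replicate 2 these were 665 wide regions (78.9%), against 34.5% of narrower regions. The difference was 21.7 percentage points in replicate 1 and 44.4 in replicate 2, a mean of 33.0 ± 16.0 (SD, n = 2), and had the same direction in both. A wide region has more bases that can come near a start, and by its midpoint the differences were 17.3 and 41.1 points. The promoter share was 28.4% in replicate 1 and 47.4% in replicate 2 for regions of 200 to under 600 bp. Just under the limit, at 500 to under 600 bp, it was 39.4% and 70.0%, so a high share was not particular to wide regions. The 2 replicates differed from each other by more than wide and narrower regions did in replicate 1.

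The difference was also present among regions of similar height. At 1 to under 2 times the library median, 39.8% of 1532 wide and 17.3% of 24483 narrower regions were promoter regions in replicate 1. In replicate 2 these were 81.2% of 441 wide and 28.7% of 15268 narrower regions. At 8 times or more the shares were 80% of 50 wide and 78.1% of narrower regions in replicate 1, and 90% of 10 wide and 89.9% of narrower regions in replicate 2.

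CpG content followed the same split. The CpG ratio, the number of CpG dinucleotides over that given by the C and G content, had a median of 0.318 in wide and 0.255 in narrower regions of replicate 1. In replicate 2 it was 0.754 in wide and 0.353 in narrower regions. Regions with a GC content over 50% and a CpG ratio over 0.6 are called CpG-rich here. They made up 28.3% of wide and 14.3% of narrower regions in replicate 1. In replicate 2 they made up 69.6% of wide and 26.7% of narrower regions. Among regions of 500 to under 600 bp they made up 23.9% in replicate 1 and 63.6% in replicate 2. Within promoter regions alone the CpG-rich share was 59.2% in wide and 51.6% in narrower regions of replicate 1, and 83.5% in wide and 62.1% in narrower regions of replicate 2. Within distal regions it was 4.72% in wide and 3.92% in narrower regions of replicate 1, and 18% in wide and 8.09% in narrower regions of replicate 2. In replicate 1, then, most wide regions were distal and poor in CpG dinucleotides.

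**Figure D2:**
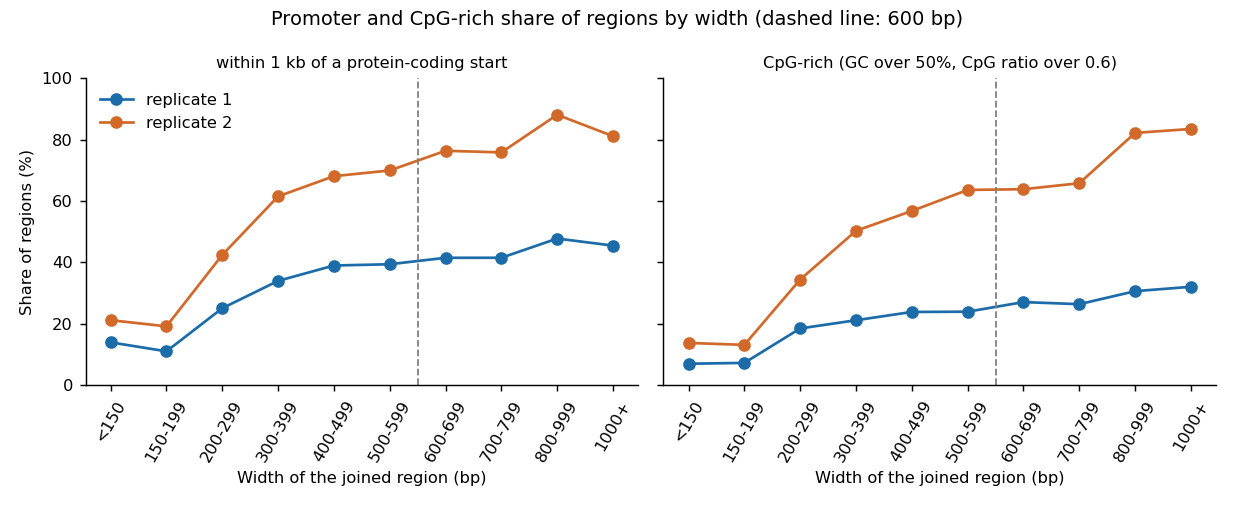
Share of joined regions within 1 kb of a protein-coding start (left) and share that were CpG-rich (right), in percent, by width class in bp, for replicates 1 and 2. Both shares are higher in the 1000 bp or more class (45.5% and 32.1% in replicate 1, 81.2% and 83.5% in replicate 2) than under 150 bp (14% and 6.98% in replicate 1, 21.2% and 13.8% in replicate 2). At 500 to under 600 bp they are 39.4% and 23.9% in replicate 1 and 70.0% and 63.6% in replicate 2.

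The extra width at starts lay mainly downstream, in the transcribed part. Among regions that held the start of 1 protein-coding gene, 712 wide regions of replicate 1 reached a median of 307.5 bp upstream and 461 bp downstream of it, against 154 and 79 bp in 9904 narrower regions. In replicate 2, 386 wide regions reached 283 bp upstream and 449.5 bp downstream, against 149 and 83 bp in 9448 narrower regions. More of the region lay downstream than upstream in 61.7% of wide and 26% of narrower regions of replicate 1, and in 63.2% of wide and 28.3% of narrower regions of replicate 2. Of the wide regions within 1 kb of a start that held none, 671 of 876 (76.6%) lay downstream of the nearest start in replicate 1 and 221 of 265 (83.4%) in replicate 2. Narrower regions of that kind lay downstream in 57.2% and 57.8% of cases. Starts on both strands within 1 region were less frequent in wide regions, with 4.29% of wide and 6.06% of narrower regions that held a start in replicate 1, and 3% of wide and 5.99% of narrower regions in replicate 2.

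**Figure D3:**
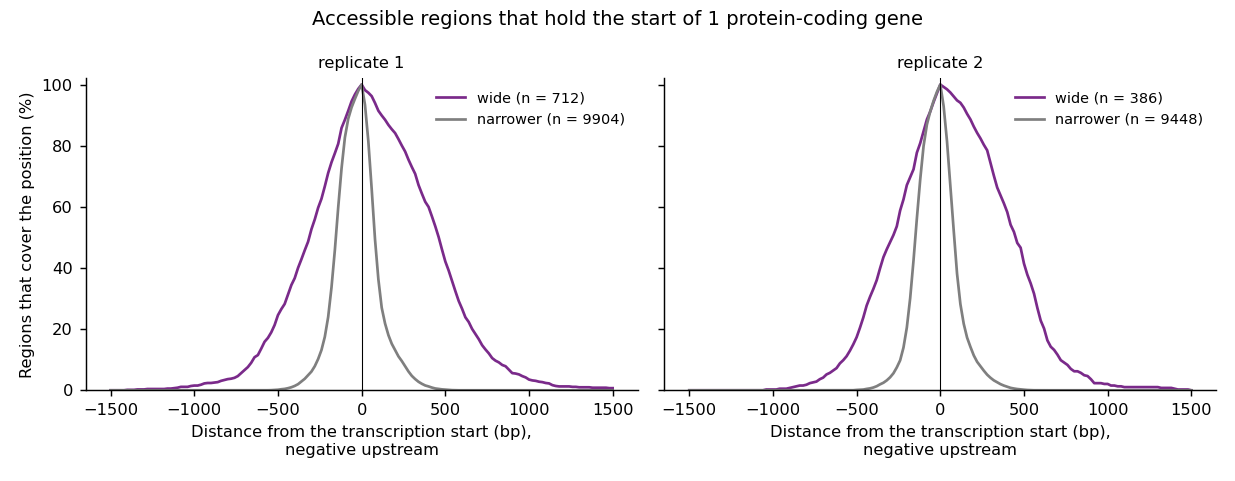
Share of regions (%) that cover each position around the start they hold, by distance in bp with upstream negative, for wide and narrower regions in replicates 1 and 2. Wide regions reach further on both sides and further downstream (median 461 and 449.5 bp) than upstream (307.5 and 283 bp), while narrower regions reach further upstream (154 and 149 bp) than downstream (79 and 83 bp).

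Distal wide regions, over 1 kb from any protein-coding start, numbered 2117 in replicate 1 and 178 in replicate 2. Their median distance to the nearest protein-coding start was 20334 bp in replicate 1, against 23667 bp for narrower distal regions, and 16247.5 bp in replicate 2, against 20240 bp. Starts of long noncoding genes were within 1 kb of 8.74% of wide and 3.66% of narrower distal regions in replicate 1, and of 10.7% of wide and 4.97% of narrower distal regions in replicate 2. For distal regions of 200 to under 600 bp the shares were 4.49% and 6.48%. Here too a wide region has more bases that can come near a start. T-cell receptor gene segments were within 1 kb of 8 wide distal regions (0.378%), against 0.206% of narrower ones, in replicate 1. In replicate 2 they were within 1 kb of 3 wide distal regions (1.69%), against 0.279% of narrower ones.

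Wide regions held more footprints each, but fewer for their length. The median was 5 footprints per wide region in replicate 1 (quartiles 1 and 8) and 6 in replicate 2 (2 and 10), a mean of 5.5 ± 0.707 (SD, n = 2), against 2 per narrower region in both. Per kb there were 6.70 footprints in wide and 10.8 in narrower regions of replicate 1, and 8.39 in wide and 12.5 in narrower regions of replicate 2. The ratio was 0.622 in replicate 1 and 0.672 in replicate 2, a mean of 0.647 ± 0.0360 (SD, n = 2), so that the difference from 1 was larger than the spread between replicates. The deficit was smaller among the highest regions. At 1 to under 2 times the library median, wide regions held 5.2 and narrower regions 9.75 footprints per kb in replicate 1, and 7.33 and 11.0 in replicate 2. At 8 times or more, wide regions held 20.6 and narrower regions 21.2 per kb in replicate 1, and 19.7 and 20.8 in replicate 2.

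The footprints in wide regions were also shorter. Their median length was 8 bp in wide and 10 bp in narrower regions of replicate 1, and 9 bp in wide and 10 bp in narrower regions of replicate 2. Footprints of 20 bp or more made up 4.92% of those in wide and 19.3% of those in narrower regions of replicate 1, and 8.19% in wide and 20.4% in narrower regions of replicate 2. Among promoter regions of 2 to under 4 times the library median height, these shares were 4.52% in wide and 13.4% in narrower regions of replicate 1, and 9.12% in wide and 17.1% in narrower regions of replicate 2.

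Footprints extended by 5 bp on each side were searched on both strands for 11 short consensus sequences. Those not given below were ATCAAAG for TCF and LEF factors, CAGCTG for E proteins, AGATAAG for GATA factors, GATTGG for NFY and TGACGTCA for CRE-binding factors, and a palindrome for NRF1. The binding motif of SP and KLF factors, GGGCGG, was in 10.6% of promoter footprints in wide and 15.1% in narrower regions of replicate 1, and in 13.3% in wide and 16.6% in narrower regions of replicate 2. Longer footprints hold more motifs, so footprints of 1 0 to 19 bp in promoter regions of 2 to under 4 times the library median height were set apart. There GGGCGG was in 16.3% of 1329 footprints in wide and 15.3% of those in narrower regions of replicate 1, and in 19.4% of 499 in wide and 16.4% in narrower regions of replicate 2. The promoter form of the ETS motif, CCGGAAG, was in 0.978% in wide and 1.54% in narrower regions of replicate 1, and in 1.00% in wide and 2.77% in narrower regions of replicate 2. In distal regions of that height, AGGAAGT, the enhancer form of the ETS motif, was in 5 of 999 footprints (0.501%) in wide and 1.45% of those in narrower regions of replicate 1, and TGTGGTT, the RUNX motif, in 0.501% and 1.37%. The motif of TCF and LEF factors was in 1.40% in wide and 1.08% in narrower regions there, and GGGCGG in 3.30% in wide and 2.87% in narrower regions. Replicate 2 had 61 such footprints in distal wide regions and none held either motif, too few to set shares apart. The core of the motif of the insulator protein CTCF was in 0.112% of all distal footprints in wide and 1.47% in narrower regions of replicate 1, and in 0.183% in wide and 2.05% in narrower regions of replicate 2. Footprints of 10 to 19 bp held it in 2 of 999 in wide and 7 of 17618 in narrower distal regions of replicate 1 at that height. In the printed windows, GGGCGG stood in shared footprints at Mgat1 and CCGGAAG in 1 at Foxp1, on the other strand. The 3 GGGCGG matches at Cdk6, the CAGCTG matches at Foxp1 and Cdkn1b and the GATTGG match at Cdkn1b were not within shared footprints. Of 240 bp windows at the centre of all promoter regions, GGGCGG was in 38.5% of wide and 42.3% of narrower ones in replicate 1, and in 54.7% of wide and 50.8% of narrower ones in replicate 2. CCGGAAG was in 4.32% of wide and 10.1% of narrower ones in replicate 1, and in 7.07% of wide and 11.5% of narrower ones in replicate 2.

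A share of wide regions held no footprint at all, 803 (21.5%) in replicate 1 and 151 (17.9%) in replicate 2, against 24.9% and 15.8% of narrower regions. Among narrower regions of 200 bp or more these were 13.2% and 9.40%. Many of the wide regions without a footprint lay in long stretches of significant cutting. The deposited false discovery rate (FDR) of the cut rate lists bases with an FDR under 0.05, and touching intervals were joined into stretches. A wide region lay in a stretch with a median length of 1882 bp in replicate 1 and 1372 bp in replicate 2, 2.41 and 1.80 times its own width. In stretches under 1000, of 1000 to under 1500, of 1500 to under 2500 and of 2500 bp or more, 0.732%, 9.31%, 27.6% and 35.5% of wide regions of replicate 1 had no footprint, and 2.58%, 14.7%, 28.0% and 38.7% of those of replicate 2. Among wide regions below the library median height the shares were 1.51% in the shortest and 87.4% in the longest stretches of replicate 1, and 5.83% and 88.9% in replicate 2, where the longest class held 18 regions. Narrower regions of 200 bp or more showed the same order, with 6.92% in the shortest and 28.7% in the longest stretches of replicate 1, and 4.81% and 27.8% in replicate 2. Whether the footprint caller treats long stretches differently was not tested. Of 343 regions of replicate 1 that overlapped a wide region of replicate 2, 27 had no footprint in replicate 1, and 19 of these had none in replicate 2 either.

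**Figure D4:**
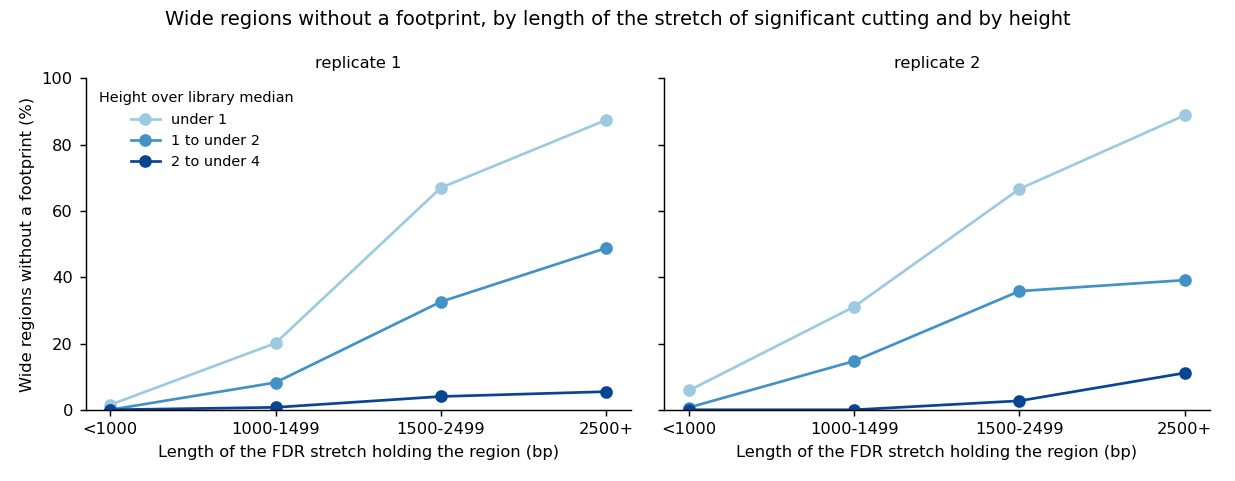
Share of wide regions without a footprint (%), by length of the stretch of FDR under 0.05 that holds the region and by height over the library median, in replicates 1 and 2. In the lowest height class the share is 1.51% and 5.83% in stretches under 1000 bp and 87.4% and 88.9% in stretches of 2500 bp or more, and at 2 to under 4 times the library median it stays at or below 11.1%.

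Wide regions often lay beside a higher, narrower region. Another region shared the FDR stretch of 66.9% of wide regions in replicate 1 and 56.3% in replicate 2, and a higher one did so for 54.9% and 45.3%. For regions of 200 to under 600 bp the shares with a higher neighbour were 21.1% and 18.5%. Long stretches have room for more regions, and this was not adjusted for. The highest region of the stretch was narrower than 600 bp in 94.8% of such cases in replicate 1 and 97.9% in replicate 2. It had a median width of 260 and 240 bp and a median height 3.60 and 3.63 times that of the wide region. At promoter regions a higher neighbour was found for 65.0% of wide regions in replicate 1 and 51.6% in replicate 2.

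Wide regions were looked up in the other animal among regions of any width, and among wide regions, which are a part of these. Of the wide regions of replicate 1, 61.4% were overlapped by a region of any width in replicate 2, against 42.8% of narrower regions. Of those of replicate 2, 94.0% were overlapped in replicate 1, against 83.3% of narrower regions. The differences were small against regions of 200 to under 600 bp, of which 58.7% in replicate 1 and 90.9% in replicate 2 were overlapped. At 2 to under 4 times the library median height, 88.8% of wide and 88.5% of narrower regions of replicate 1 were overlapped. Each replicate was also limited to regions whose highest peak reached the median of its own library, which removed regions that could overlap. Of the wide regions left, 45.7% in replicate 1 and 97.8% in replicate 2 were overlapped. Without this height limit, a wide region of the other replicate overlapped 343 (9.17%) of the wide regions of replicate 1 and 343 (40.7%) of those of replicate 2. Of narrower regions, 0.554% in replicate 1 and 4.57% in replicate 2 were overlapped by a wide region. For regions of 200 to under 600 bp these shares were 0.879% and 5.54%. Where a wide region was overlapped, the widest region there had a median width of 300 bp in replicate 2 for members of replicate 1, and of 540 bp in replicate 1 for members of replicate 2. With the number of peaks set equal, at the 69798 highest of each list, replicate 1 had 2798 wide regions, and 71.4% of these were overlapped in replicate 2.

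Among wide regions, the distal ones of replicate 1 were least often found in the other animal. Of 1622 promoter wide regions in replicate 1, 18% were wide in replicate 2, 62.9% narrower there and 19.1% had no region there. Of 2117 distal ones, 2.41% were wide, 44.0% narrower and 53.6% had no region there. A region of replicate 2 overlapped 46.4% of these distal wide regions, against 36.0% of the 94512 narrower distal regions of replicate 1. A wide region of replicate 2 overlapped 0.164% of those narrower distal regions, and 1.97% of narrower promoter regions. In replicate 2, 43.9% of 665 promoter wide regions were wide in replicate 1, 53.5% narrower and 2.56% without a region there, while of 178 distal ones 28.7% were wide, 52.2% narrower and 19.1% without a region. A region of replicate 1 overlapped 80.9% of distal wide and 83.7% of narrower distal regions of replicate 2. Wide regions of replicate 1 without a counterpart had a median height of 1.03 times the library median, against 2.36 for those wide in both.

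Overlaps formed 347 pairs of regions wide in both, of which 293 were promoter and 50 distal, and 4 were promoter in 1 replicate alone. Their median width was 780 bp in replicate 1 and 720 bp in replicate 2, with a median of 640 bp in common. Over the pairs the widths had a Pearson r of 0.196 and a Spearman rho of 0.258, a description of pairs that share libraries. Both widths of a pair had to reach 600 bp, so these values do not measure how alike widths were between replicates. By alignment at 90% identity over 80% of the length, 2 of the 347 common stretches matched another place in the genome, and 5 gave no match at all and were not assessed. The 2 lay near Ulbp1 on chromosome 10 and at 9030624G23Rik on chromosome 12. Whether reads there could be placed was not tested.

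The widest region of replicate 1 lay at Skap1, an adaptor of T-cell adhesion and receptor signalling, on chromosome 11 from 96463981 to 96466900. It measured 2920 bp, joined 6 peaks, held 18 footprints and reached 4.10 times the library median. The region there in replicate 2 measured 500 bp. Of the 10 widest regions of replicate 1, 7 were distal, and in replicate 2 each of the 10 places held a region of at most 500 bp or none. They included 2780 bp inside Plxnd1, which codes for a semaphorin receptor of migrating thymocytes, and 2300 bp without a footprint inside Bcl2l1, which codes for the survival protein Bcl-xL. Neighbouring regions of 2260 and 2540 bp lay at and beside Trbc2, in that order, with 4 footprints each in an FDR stretch of 13899 bp. Trbc2 is a constant segment of the T-cell receptor beta chain. A region of 2680 bp overlapped the noncoding gene Gm39556, 22031 bp from Ly6e, and held 30 footprints, which in replicate 1 was equalled by a region at Ppp2r3d and not exceeded. Others were 2440 bp near Spag6, 2240 bp inside Arvcf, 2200 bp in Cd8b1, the beta chain of the CD8 coreceptor, and 2180 bp at Ccnd3, which codes for cyclin D3, the D-type cyclin of expanding thymocytes. The Cd8b1 region began 853 bp downstream of the start and held 19 footprints, and the Ccnd3 region began 280 bp from a start and held none.

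The 10 widest regions of replicate 2 were mostly CpG-rich starts. The widest, at Spred2, an inhibitor of the Ras-MAP kinase pathway, lay on chromosome 11 from 19924101 to 19925900 and measured 1800 bp with 27 footprints, and replicate 1 had 900 bp there. Others at starts were Jmy (1600 bp), Cdc42ep3 (1460 bp), Ppp2r3d (1460 bp), Zfp827 (1440 bp), Lrrc58 (1420 bp), Paip1 (1400 bp) and Myc (1400 bp), with 12 to 22 footprints. Sox4, a transcription factor of early thymocytes, had 1400 bp from 653 bp off its start without a footprint. A single distal region was among them, on chromosome 12 from 113424161 to 113425560 with 20 footprints, between the heavy chain gene segments Ighm and Ighj4. It had a GC content of 63.4% and a CpG ratio of 0.0292, and replicate 1 had 1525 bp there. In replicate 1, 8 of these 10 places also held a wide region.

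Among promoter regions wide in both animals, the highest was at Slc25a42, a mitochondrial coenzyme A carrier, on chromosome 8. It measured 620 bp in replicate 1 and 660 bp in replicate 2, with 15.9 and 15.8 times the library median height and 13 and 11 footprints. The next were Ppp2r3d, a phosphatase regulatory subunit (1420 and 1380 bp, 30 and 27 footprints), and Mgat1 (800 and 740 bp, 15 and 13 footprints). Camk1d, a calcium-dependent kinase, Scaf8, which binds RNA polymerase II, Mnt, a Myc antagonist, Patz1, a zinc finger factor, Rev3l, a DNA polymerase subunit, and Epc1, of a histone acetyltransferase complex, were also among the 10. All 10 were between 600 and 1420 bp wide and held 9 to 30 footprints in each replicate. Heights of these 10 differed between replicates by an SD from 0.0466 to 3.12 times the library median.

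The highest distal regions wide in both were lower, at 2.68 to 4.97 times the library median on average. The first lay inside Maml3, a Notch coactivator, 2196 bp from a start on chromosome 3, from 52102161 to 52102880 in both replicates, with 12 footprints in replicate 1 and 16 in replicate 2. The second was the region beside Cdkn1b printed above, 660 bp in replicate 1 and 600 bp in replicate 2. The third lay 2066 and 2126 bp from the start of Kdm6b, an H3K27 demethylase, with 17 and 7 footprints. Others lay at the noncoding genes Lncpint, 4930428N03Rik and Lncppara, inside Arl15 and Trak1, 55420 bp from Rbx1 and among the Trbj2 segments. The Trbj2 region measured 1640 bp in replicate 1 and 700 bp in replicate 2, with 18 and 8 footprints.

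By gene, 1296 of 20722 autosomal protein-coding genes (6.25%) had a wide region within 500 bp of a start in replicate 1, and 621 (3%) in replicate 2, a mean of 958.5 ± 477.3 (SD, n = 2). In both replicates 279 genes (1.35%) did, and at 259 of these the wide regions of the replicates overlapped. A region of any width was at a start of 95.5% of the replicate 1 genes in replicate 2, and of 99.5% of the replicate 2 genes in replicate 1. Genes with a wide region had a median of 3 annotated starts, against 2 for other genes, and more starts give more places to be counted. A distal wide region within 100 kb had 5.86% of all genes as its nearest gene in replicate 1, 0.695% in replicate 2 and 0.309% in both.

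The 10 genes with the most wide regions within 100 kb, by the lower of the replicate counts, included 3 of the T-lineage factors listed below, Tcf7, Satb1 and Foxp1. All but Tcf7 tied at 2 in replicate 2 and were ordered by replicate 1. Tcf7, which codes for TCF1 and commits progenitors to the T lineage, was nearest to 8 in replicate 1 and 3 in replicate 2, all distal. A region 8326 bp from a Tcf7 start measured 1165 bp in replicate 1, and replicate 2 had 1095 bp there. Satb1, a chromatin organiser of thymocytes, had 11 in replicate 1 and 2 in replicate 2. A region at a start inside Satb1 was wide in both, at 1280 bp with 16 footprints in replicate 1 and 680 bp with 5 in replicate 2. Ccnd3 had 8 and 2, Prss2 had 7 and 2, Foxp1 6 and 2, Ppp2r3d 6 and 2, Cxxc5 4 and 2, and Atxn1, Cdk6 and E030030I06Rik 3 and 2 each. Prss2 lies beside the T-cell receptor beta segments, which are no protein-coding genes in the annotation, so wide regions of that locus were counted for Prss2. By replicate 1 alone, an order chosen after its values were seen, Satb1 was followed by Cd2, Ets1 and Ifngr1 with 9 each, Aqp11, Ccnd3, Cd8a, Pitpnm2 and Tcf7 with 8 each and Atp10a with 7. In replicate 2 Cd2, Ets1, Ifngr1, Aqp11, Cd8a, Pitpnm2 and Atp10a had 0.

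A list of T-lineage transcription factors held 21 genes, among them Notch1, a receptor, and Zfp36l2, an RNA-binding protein. Of these 21, 9 (42.9%) had a wide region at a start in replicate 1 and 4 (19%) in replicate 2. The shares of all genes were 6.25% and 3%. Notch1 was 1 of the 9, with 640 bp. All 21 had a region of any width at a start in both replicates, as did all 18 cell cycle and all 17 housekeeping genes. Of all genes with a region of any width at a start, 9.89% had a wide one in replicate 1 and 5.18% in replicate 2. Tcf12, Satb1 and Foxp1 had a wide region at a start in both. Widths given for the starts of a gene are those of the widest region at any of its starts, which can differ in place between replicates. Tcf12, an E protein, had 820 bp in replicate 1 and 620 bp in replicate 2. At Foxp1 the widest regions at a start, 1240 bp in replicate 1 and 1040 bp in replicate 2, lay at different starts, and replicate 2 had 660 bp at the start that was widest in replicate 1. Lef1 was wide in replicate 1, with 740 bp, and had 300 bp in replicate 2 at another place that did not overlap it. Gata3 had 400 bp in replicate 1 and 754 bp in replicate 2 within 500 bp of a start. A further promoter region of Gata3 was wide in both, with 1120 bp in replicate 1, 960 bp from a start, and 789 bp in replicate 2, 891 bp from it. Distal wide regions had 15 of the 21 (71.4%) as nearest gene in replicate 1 and 3 (14.3%) in replicate 2, against 5.86% and 0.695% of all genes. They numbered 64 in replicate 1, with 9 at Ets1, 8 each at Tcf7 and Satb1 and 6 each at Sox4 and Zfp36l2, and 5 in replicate 2, with 3 at Tcf7 and 1 each at Lef1 and Zfp36l2. Ets1 itself had regions of 240 bp at its start in both replicates, at 15.3 and 13 times the library median. These genes were chosen for their role in thymocytes with earlier results of these data known.

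In replicate 1 a wide region lay at a start of 6.25% of all genes and of 9.89% of genes with any region there. Of the genes of T-cell receptor signalling, 4 of 20 (20%) had one in replicate 1. These were Cd3d with 880 bp, Zap70 with 620 bp, Cd28 with 740 bp and Themis with 780 bp. The widest regions at starts of these genes in replicate 2 had 180 to 360 bp, and that of Cd3d lay at another place. In replicate 2, 0 of 20 had a wide region at a start, which in a list of this size cannot be set apart from the 3% of all genes. Distal wide regions had 8 of the 20 (40.0%) as nearest gene in replicate 1 and 0 in replicate 2, against 5.86% and 0.695% of all genes. The 0 cannot be set apart from 0.695% in a list of this size. Cd8a, the alpha chain of the CD8 coreceptor, had 6 distal wide regions in replicate 1, the widest of 1533 bp, and Cd8b1 had 3. The regions at both starts were short and high, with 260 and 220 bp at Cd8a and 240 and 200 bp at Cd8b1, at 9.71 to 11.1 times the library median in both replicates. Cd4 had 400 bp in replicate 1 and 220 bp in replicate 2, and Cd3e 260 and 220 bp, with no distal wide region. Rag1 and Rag2, which cut receptor gene segments, had 160 to 260 bp at their starts, and Rag1 had 3 distal wide regions in replicate 1 and 0 in replicate 2.

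Other fixed genes had no wide region at a start. These were Bcl11b with 360 bp in replicate 1 and 280 bp in replicate 2, Ikzf1 with 460 and 220 bp, Runx1 with 440 and 331 bp, Runx3 with 420 and 320 bp and Tcf7 with 420 and 460 bp. At each of these genes the widest regions of the replicates lay at different places and did not overlap. Foxn1, the master factor of thymic epithelium, and Alb, which codes for albumin, had no region at a start in either replicate.

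In the other lists counts at starts were set against 6.25% of all genes in replicate 1 and 3% in replicate 2. Of 18 cell cycle genes, 4 (22.2%) in replicate 1 and 1 (5.56%) in replicate 2 had a wide region at a start, and Cdk6 had one in both, of 1520 and 1140 bp. Of 15 genes of the pre-receptor stage and recombination 1 did in replicate 1 (Xrcc6, 968 bp) and 0 in replicate 2, and of 14 genes of mature T cells and egress 1 in replicate 1 (Jak3) and 1 in replicate 2 (Bcl2). Of 17 housekeeping genes 1 did in replicate 1 (Actb, 980 bp) and 0 in replicate 2. Single genes in replicate 1 and 0 in replicate 2 were found for thymic epithelium (Epcam, 1220 bp), endothelium (Pecam1, 680 bp) and the fibroblast list, whose gene Thy1 is also a surface protein of thymocytes. The lists of 15 B-lineage, 18 myeloid and dendritic, 12 erythroid, 16 skeletal muscle, 18 hepatocyte, 14 effector T-cell and 18 developmental regulator genes had 0 in both replicates. A region of any width was at a start of 8 of the 15 B-lineage, 10 of the 20 epithelial, 6 of the 18 myeloid, 9 of the 15 fibroblast and 7 of the 15 endothelial genes in replicate 1, and of 6, 9, 5, 4 and 5 of them in replicate 2. For the erythroid, muscle, hepatocyte, effector and developmental lists these were 5, 4, 1, 7 and 9 genes in replicate 1 and 4, 1, 1, 4 and 8 in replicate 2. Members without any region at a start included Cd79a and Ms4a1 among B-lineage genes, Itgax, Csf1r and Adgre1 among myeloid genes, Il4, Il5 and Il13 among effector genes, and Hoxa9, Hoxc6 and Hoxd10 among developmental regulators. In the tissue lists they included Foxn1, Psmb11 and Cxcl12 of thymic epithelium, Col1a1, Col3a1 and Dcn of fibroblasts, Cdh5, Tek and Tie1 of endothelium and Acta1, Ckm and Myh1 of muscle. Such genes could not be wide, so a list's share also moves with how many of its starts were accessible at all.

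For distal wide regions, 7 of the 14 mature T-cell genes (50%), 5 of the 15 pre-receptor genes (33.3%) and 3 of the 14 effector genes (21.4%) were nearest gene in replicate 1, against 5.86% of all genes, and 0 of each in replicate 2. Those of the effector list were Fasl, Il10 and Gzma. The 9 lists of B-lineage, epithelial, myeloid, fibroblast, endothelial, erythroid, muscle, hepatocyte and developmental genes had 0 or 1 such gene in replicate 1, which in lists of 12 to 20 genes cannot be set apart from 5.86%, and 0 in replicate 2. The cell cycle list had 3 of 18 in replicate 1 and 2 of 18 in replicate 2, and the housekeeping list 2 of 17 and 0 of 17. Replicate 2 had 178 distal wide regions in all, so a count of 0 in a list of this size cannot be set apart there from the 0.695% of all genes. Genes named from lists here without a wide region in both replicates were picked after their values were seen.

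**Figure D5:**
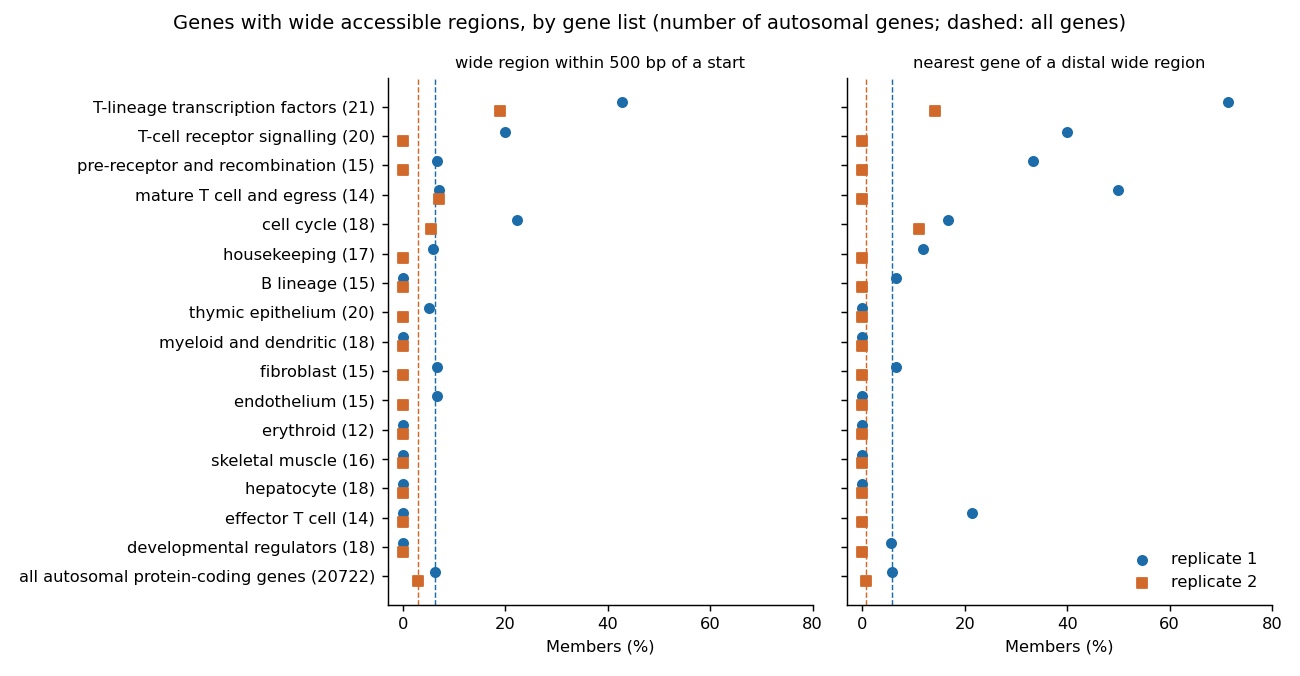
Share of the autosomal genes of each list (%) with a wide region within 500 bp of a start (left) and as nearest gene of a distal wide region within 100 kb (right), in replicates 1 and 2. Dashed lines mark all 20722 autosomal protein-coding genes (6.25% and 3% left, 5.86% and 0.695% right). The list named T-lineage transcription factors, which also holds Notch1 and Zfp36l2, lies furthest to the right in both panels for both replicates (42.9% and 19% left, 71.4% and 14.3% right).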

How the data were processed

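DNase-seq was deposited for 2 thymus libraries of 1 group. Each had a pair of peak lists, a footprint list and a file of the FDR (false discovery rate) of its cut rate on mm10, made per library, per the README deposited with each sample. The sources used here do not give aligner, callers, versions, thresholds or read depth. Peak height is the signal deposited by the authors, scaled within a library by a factor not given here, so heights were divided by the library's median. The FDR values deposited by the authors, a q-value for each interval, lie under 0.05, and the footprint list carries the constant 0.01, read here as the threshold used by the authors. Whether footprints were corrected for the sequence preference of DNase I is not stated. Loss of CAST/EiJ reads at mapping was not measured.

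Peaks of the larger list were joined where they overlapped or touched. Starts were those of protein-coding transcripts in GENCODE M21. A footprint belonged to a region that held most of its bases or an equal share, and overlap counted from 1 bp. Python 3.11.15, numpy 2.4.6, pysam 0.24.0 and minimap2 2.31-r1302 were used, and joining, counting and overlap were checked on simulated data. With 1 group of 2 libraries, and with regions that are no replicates, no test was run and every share is a description of these libraries.

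Members, 16 gene lists and alternatives were chosen with earlier results of these data known. Named were the 10 widest regions per replicate, the 10 highest promoter and distal regions wide in both, the 10 genes with most wide regions by their lower replicate count, list members wide in both or without a region, and a fixed set of thymocyte and control genes. Gata1 of that set lies on the X chromosome and was left out with all sex-chromosome regions. Values of some genes under this rule are not reported here.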

Additional observations from a re-analysis of the deposited data

Results flagged for a closer look

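Regions of the sex chromosomes were outside the autosomal rule but held signal of the same kind. On the X chromosome 90 of 3551 regions (2.53%) were wide in replicate 1 and 27 of 1803 (1.5%) in replicate 2, beside 3.01% and 1.27% of autosomal regions. On the Y chromosome 3 of 49 regions in replicate 1 and 2 of 51 in replicate 2 were wide, with a greatest width of 1340 and 1000 bp, although both libraries are labelled female. Whether the reads there came from sequence shared with other chromosomes was not tested.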

How the results depend on the processing

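No paired analysis was possible because there was 1 group and no test. Values here are means over the 2 replicates. Of 91 values under other settings, 81 moved by less than the spread between replicates, or by less than 1.5 times for counts. Only the promoter share difference and the ratio of footprints per kb could change direction, and neither did. The number of wide regions, 2291, was 1443.5 with the stricter peak list, 4154.5 at 500 bp or more and 764.5 at 800 bp or more. Genes with a wide region at a start, 958.5, were 1634 at 500 bp and 345.5 at 800 bp, and T-lineage factors, 6.5, were 3.5 at 800 bp. Median footprints per wide region, 5.5, were 6.5 with the stricter list, 7 at 800 bp and 6.5 where the highest peak had to reach the library median, where the ratio of footprints per kb was 0.582. The cause of these changes was not tested. Leaving out 1 replicate at a time gave 843 to 3739 wide regions, 621 to 1296 genes and 4 to 9 T-lineage factors. Promoter share, CpG ratio and both overlaps moved by less than the replicate spread in all settings, a spread that is itself wide at n = 2 (23 percentage points for overlap by any region). Midpoint distances and leaving peaks unjoined were added after seeing the data. The depth behind these counts could not be read from the files.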
